A study of Mus musculus with 25 samples.

Results

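At 2961 of 26182 curated RefSeq genes, H3K4me3 was found at the promoter of primary myoblasts without a Spin1 peak. These genes were chosen by 1 rule from the deposited peak lists. An H3K4me3 peak had to overlap TSS±1 kb of any curated transcript by at least 1 bp, and no Spin1 peak was allowed to overlap TSS±1 kb of any of its transcripts. They made up 11.3% of all genes and 18.3% of the 16207 genes with H3K4me3. The other 13246 genes with H3K4me3 also carried Spin1, 21 genes had Spin1 alone and 9954 had neither. The study asked how loss of Spin1 affects skeletal muscle in mice, and mapped Spin1 and H3K4me3 in cultured muscle precursor cells. Each mark was measured by ChIP-seq with 1 library, so there were no replicates and no test between conditions was possible. Both libraries came from primary myoblasts, isolated by preplating from the limb muscle of C57BL/6 mice (C57BL/6 N in the study's methods) at 10 days of age and grown to about 70% confluency. How many mice or cultures were pooled is not given in the sources used here. Spin1 was precipitated with a custom anti-SPIN1 antibody, and the histone mark with a Diagenode antibody that the sample's title gives as H3K4me3 and its antibody entry as H3K4me. The 12 genes chosen as markers of myoblasts, among them Pax7, Myod1, Myf5 and Cdh15, all had H3K4me3 and Spin1, and none was among the 2961. With 12 genes, this allows a share without Spin1 of up to 24.2% (upper Wilson limit), which includes the 18.3% of all H3K4me3 genes. The score deposited with each peak is the p-value that MACS gave it over input, taken as its negative log10 and multiplied by 10. Many peaks sit at the ceiling of 3100, so all from 3100 upwards were treated as 1 class. All 12 myoblast markers were in this class, where 9.04% of all H3K4me3 genes lacked Spin1, a share also below the limit of 24.2%. The peak lists hold no reads, and sequencing depth is therefore unknown. A missing Spin1 peak therefore means that none was listed, not that Spin1 was absent.

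H3K4me3 is the trimethylated lysine of histone H3 that marks active promoters. It is placed by SET1 and MLL complexes, which are drawn to stretches of unmethylated CpG dinucleotides, the CpG islands. Promoters of developmental regulators often keep H3K4me3 in cells that do not use the gene, where it can lie beside the repressive mark H3K27me3. Spin1 binds H3K4me3 through its Tudor-like domains and is called a reader of the mark.

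The range of promoter sequence among the 2961 genes is shown by the muscle and lineage genes with the lowest and the highest CpG content, and by Ckm and Myh8, which the study names. Each stretch runs from 220 bases upstream to 30 bases downstream of a RefSeq start site on GRCm38 (mm10) and is given 5′ to 3′ on the strand of the gene. Capitals mark CG dinucleotides, the TATAAA box on either strand and matches to the MEF2 motif, the site of the myogenic MEF2 factors. Genes whose stretch held more than 30 exonic bases were passed over.
Myom2 (chr8:15057433-15057682, strand +): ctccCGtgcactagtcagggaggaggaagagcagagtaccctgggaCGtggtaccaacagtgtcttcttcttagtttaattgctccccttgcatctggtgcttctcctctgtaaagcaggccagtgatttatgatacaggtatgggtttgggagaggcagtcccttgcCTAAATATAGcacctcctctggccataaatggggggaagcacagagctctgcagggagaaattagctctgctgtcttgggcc
Xirp2 (chr2:67445782-67446031, strand +): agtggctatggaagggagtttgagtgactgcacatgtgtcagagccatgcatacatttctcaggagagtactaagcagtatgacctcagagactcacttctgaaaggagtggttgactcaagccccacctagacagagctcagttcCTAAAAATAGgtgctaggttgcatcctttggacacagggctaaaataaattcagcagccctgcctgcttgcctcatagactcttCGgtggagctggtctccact
Ckm (chr7:19410874-19411123, strand +): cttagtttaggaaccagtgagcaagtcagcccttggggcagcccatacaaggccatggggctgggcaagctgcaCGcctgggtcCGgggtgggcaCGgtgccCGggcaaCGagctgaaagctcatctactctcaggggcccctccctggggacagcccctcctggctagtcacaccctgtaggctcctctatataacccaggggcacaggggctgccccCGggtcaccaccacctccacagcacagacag
Myh8 (chr11:67276904-67277153, strand +): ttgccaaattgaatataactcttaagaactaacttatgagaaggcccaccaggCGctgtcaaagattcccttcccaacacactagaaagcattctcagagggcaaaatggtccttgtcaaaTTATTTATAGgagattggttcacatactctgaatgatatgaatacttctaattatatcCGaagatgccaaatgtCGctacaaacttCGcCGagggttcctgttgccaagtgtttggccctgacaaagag
Sypl2 (chr3:108226570-108226819, strand -): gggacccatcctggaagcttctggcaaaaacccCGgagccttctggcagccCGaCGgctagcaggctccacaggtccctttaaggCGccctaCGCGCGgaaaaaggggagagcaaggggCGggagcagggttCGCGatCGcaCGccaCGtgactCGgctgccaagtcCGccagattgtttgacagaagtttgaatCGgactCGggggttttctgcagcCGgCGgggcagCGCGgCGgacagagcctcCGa
Neurog2 (chr3:127632916-127633165, strand +): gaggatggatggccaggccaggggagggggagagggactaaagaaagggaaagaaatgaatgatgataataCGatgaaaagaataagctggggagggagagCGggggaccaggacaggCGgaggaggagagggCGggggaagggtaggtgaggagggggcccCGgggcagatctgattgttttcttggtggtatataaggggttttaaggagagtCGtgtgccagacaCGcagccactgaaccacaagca
Ikzf1 (chr11:11685705-11685954, strand +): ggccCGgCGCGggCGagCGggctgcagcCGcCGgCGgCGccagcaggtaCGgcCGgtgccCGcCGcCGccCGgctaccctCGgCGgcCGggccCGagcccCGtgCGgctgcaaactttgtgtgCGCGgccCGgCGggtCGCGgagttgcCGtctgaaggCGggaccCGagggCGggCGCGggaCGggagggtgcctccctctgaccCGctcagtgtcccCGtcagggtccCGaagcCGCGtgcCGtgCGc
Myom2, an M-band protein, had 2 CG dinucleotides in this stretch and Xirp2, an actin-binding protein of striated muscle, had 1. The MEF2 match began at position -52 in Myom2, at -74 in Xirp2 and at -99 in Myh8, the perinatal myosin heavy chain. In Myh8, the TATAAA match on the opposite strand began at -96 and shared letters with the MEF2 match. Ckm, muscle creatine kinase, had 6 CG dinucleotides. Sypl2, a triad junction protein also called mitsugumin 29, had 23, and the lymphoid regulator Ikzf1 had 41. The neuronal bHLH gene Neurog2 had 7 in the same stretch, although the ratio of observed to expected CpG over TSS±500 bp was 0.852.

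The values that chose the genes are described first, without a test. The strongest H3K4me3 peak at their promoters had a median score of 2245 (95% interval of the median over genes, 2056 to 2507) and a median width of 1657 bp (1624 to 1689 bp). At the 13246 genes with both marks, the median score was 3100 and the median width 3557 bp (3531 to 3582 bp). These intervals cover counting error over genes only, and genes that share a peak are not independent. The 2961 genes had 2748 different strongest peaks, and 404 genes lay on a peak that was the strongest of more than 1 of them. A score of 3100 or more was reached by 1293 of the 2961 genes or 43.7%, compared with 98.2% of the genes with both marks. Scores under 100 were found at 229 genes or 7.73%. The lowest scores among protein-coding genes belonged to Lrrc39 (50.2), Gpr6 (50.4) and Grrp1 (50.4). The widest H3K4me3 peaks among protein-coding genes were those of the meiotic gene Msh4 (8813 bp), the galactosyltransferase gene B3galt4 (8148 bp), Flrt2 (7999 bp), Gm36712 (7016 bp) and the chemokine receptor gene Ccr10 (6903 bp). At these genes the nearest Spin1 peak was 2939, 1790, 2758, 1806 and 1014 bp from the start site, in the same order. The B3galt4 peak was also that of the ribosomal protein gene Rps18, which had Spin1. The peaks of Gm36712 and Ccr10 did not cover the start site. The H3K4me3 peak lay over a start site in 86.4% of the 2961 genes and in 99.2% of the genes with both marks. Its centre was a median of 187 bp downstream of the start site (174 to 201 bp), compared with 425 bp (414 to 434 bp) for genes with both marks.

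**Figure D1:**
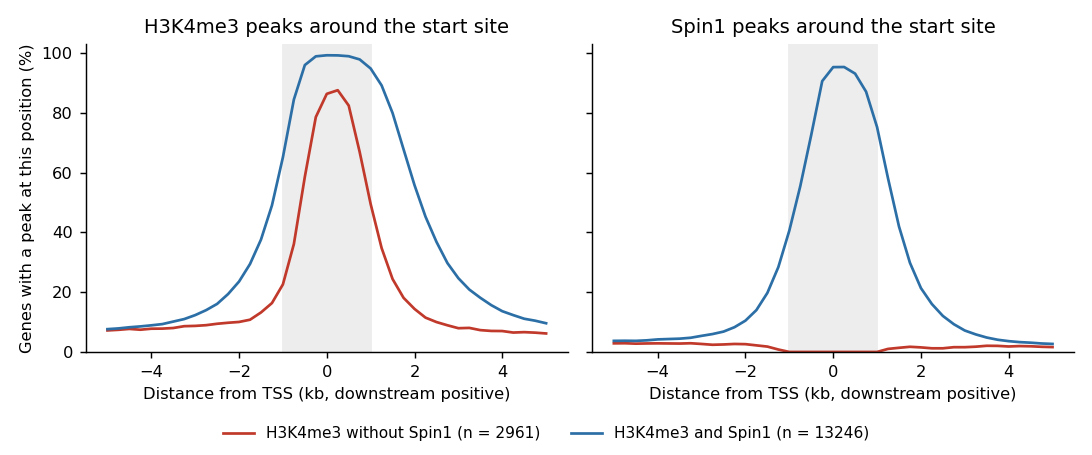
Share of genes (%) with a peak at positions up to 5 kb on either side of the start site, in steps of 250 bp, for H3K4me3 (left) and Spin1 (right), in the 2961 genes without Spin1 (red) and the 13246 genes with both marks (blue). Grey marks TSS±1 kb, where the rule sets the red line for Spin1 to 0. At 1 kb downstream, H3K4me3 covered 49.5% of the red and 94.8% of the blue genes.

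The distance to the nearest Spin1 peak had a median of 40506 bp (37723 to 44024 bp). A Spin1 peak lay within 2 kb of a start site in 135 genes (4.56%) and within 5 kb in 317 genes (10.7%), whereas 796 genes (26.9%) had none within 100 kb. Just inside the threshold were Lor, an epidermal envelope protein, with Spin1 at 1001 bp, Igflr1 at 1009 bp and the splicing regulator Esrp2 at 1013 bp. Just outside it, Spin1 overlapped the window by 6 bp at Gm34746, by 7 bp at H3f4 and by 10 bp at Snord83b. Of the genes with both marks, 44 (0.332%) had an overlap under 200 bp. The strongest H3K4me3 peak reached a Spin1 peak beyond the window in 150 of the 2961 genes (5.07%), and 268 genes (9.05%) had a Spin1 peak somewhere in the gene body. The gene farthest from Spin1 was Slitrk4, a neuronal transmembrane protein, at 3728371 bp, and the cadherin genes Cdh8 at 3364109 bp and Cdh10 at 2843726 bp were also among the 5 farthest.

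Read from the side of H3K4me3, the share of marked genes without Spin1 fell with each class of score. It was 96.6% (93.5 to 98.3%, Wilson) of 237 genes at scores under 100, 86.0% of 420 genes from 1000 to 2000 and 74.2% of 341 genes from 2000 to 3100. At 3100 or more it was 9.04% of 14307 genes (8.58 to 9.52%). By width, 95.2% of 539 genes under 1 kb lacked Spin1, 68.2% of 2155 genes from 1 to 2 kb, 14.9% of 4223 from 2 to 3 kb and 2.82% of 3724 from 4 to 6 kb. Above 6 kb, the share was 4.19% of 1502 genes (3.29 to 5.33%). Among protein-coding genes it did not rise again, with 2.12% of 3298 genes from 4 to 6 kb and 1.15% of 1213 genes above 6 kb. The score of a peak also rises with its width and with sequencing depth, and Spin1 and H3K4me3 were compared with the same input, so strength of the mark and detection of Spin1 cannot be told apart.

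**Figure D2:**
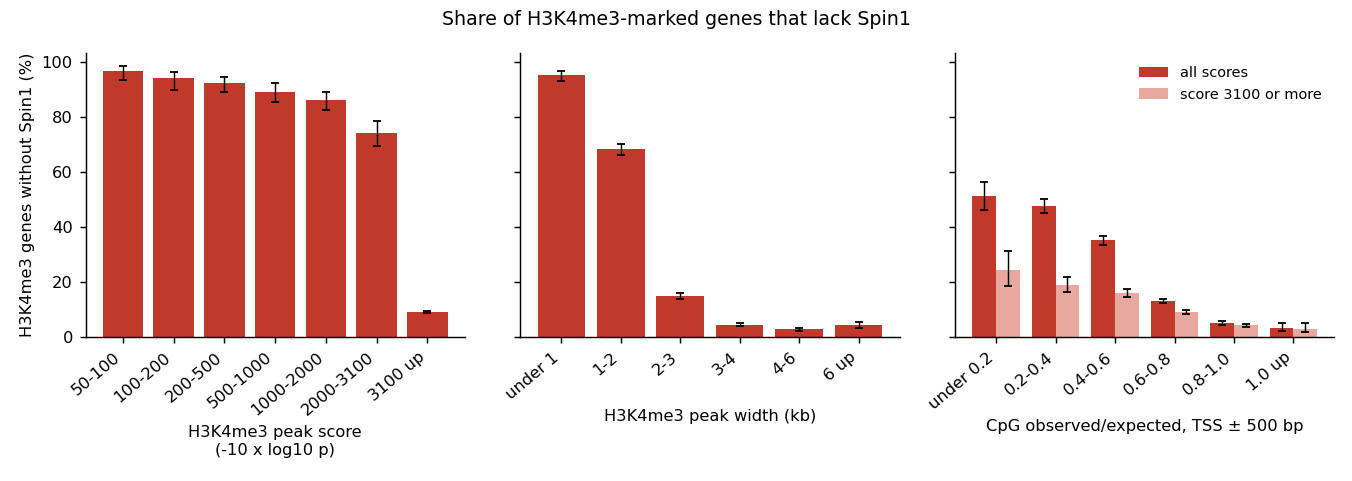
Share of H3K4me3 genes without Spin1 (%) by score (left) and width (centre) of the strongest H3K4me3 peak and by the ratio of observed to expected CpG in TSS±500 bp (right), with 95% Wilson intervals. The share fell from 96.6% at the lowest to 9.04% at the highest scores, and from 51.2% to 3.28% over the CpG classes. Pale bars show genes with a score of 3100 or more, from 24.3% to 3.09%.

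The sequence around the start site was not used by the rule. In TSS±500 bp, the ratio of observed to expected CpG had a median of 0.517 (0.506 to 0.528) in the 2961 genes, 0.752 (0.748 to 0.755) in genes with both marks and 0.188 (0.185 to 0.191) in genes with neither. GC content had medians of 56.8%, 60.0% and 45.8%. A ratio of at least 0.6, as in CpG islands, was found in 1078 of the 2961 genes or 36.4% (34.7 to 38.2%) and in 78.9% (78.2 to 79.5%) of genes with both marks. A ratio under 0.4 was found in 29.5% and 7.04%. Within the genes without Spin1, CpG content differed with the score. The 1668 with a score under 3100 had a median ratio of 0.444 (0.435 to 0.456), and the 1293 with a score of 3100 or more had 0.635 (0.626 to 0.643), which was still below the 0.755 (0.752 to 0.758) of genes with both marks in that class of score. Within it, the share without Spin1 was 24.3% of 181 genes with a ratio under 0.2, 15.9% of 2146 genes from 0.4 to 0.6 and 4.26% of 4719 genes from 0.8 to 1. At scores under 3100 the share did not fall in this way, with 78.3% under 0.2, 91.5% from 0.4 to 0.6 and 86.4% of 44 genes from 0.8 to 1. Among peaks of 3100 or more that were 2 to 3 kb wide, it was 22.2% of 266 genes at ratios from 0.2 to 0.4, 10.2% of 1963 genes from 0.6 to 0.8 and 12.3% of 863 genes from 0.8 to 1. The highest ratios among protein-coding genes without Spin1 belonged to Rimklb (1.10), the homeobox gene Barhl2 (1.07), the chemokine gene Ccl21b (1.05), Paqr9 (1.05) and Nudt10 (1.05).

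**Figure D3:**
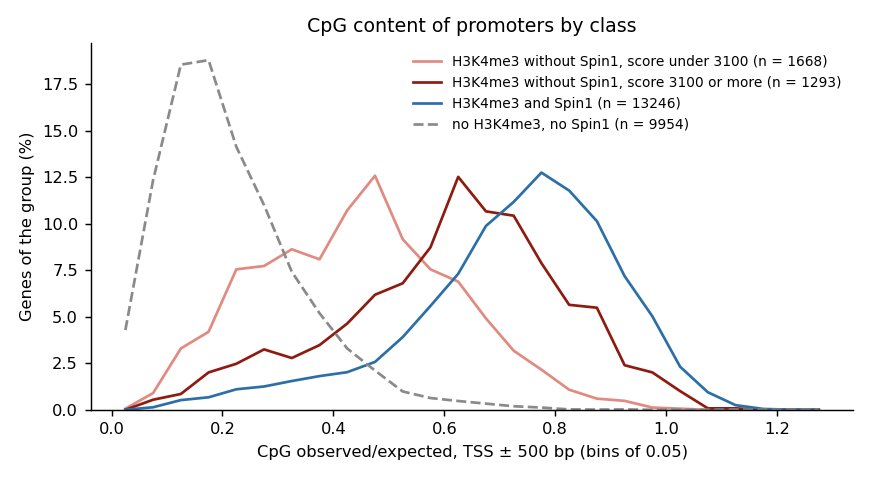
Distribution of the ratio of observed to expected CpG in TSS±500 bp, in bins of 0.05, as the share of genes (%) in each group. The genes without Spin1 are drawn by score, under 3100 (pale red, median 0.444) and 3100 or more (dark red, median 0.635), between the genes with neither mark (dashed, 0.188) and those with both (blue, 0.752).

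Short motifs were counted on both strands from 250 bases upstream to 50 bases downstream of the start site, where a match describes the letters and not a bound factor. The ETS motif CCGGAAGT, common at housekeeping promoters, was found in 34 of the 2961 genes or 1.15% (0.823 to 1.60%), in 8.46% (8.0 to 8.95%) of genes with both marks and in 4.73% of all promoters. The NRF1 motif GCGCATGC, the site of nuclear respiratory factor 1, was found in 1.59% (1.20 to 2.10%), 5.35% (4.97 to 5.74%) and 3.24%. The cAMP response element TGACGTCA was found in 1.55% (1.17 to 2.07%), 3.53% (3.23 to 3.86%) and 2.28%. The lower shares of these motifs were also seen at CpG-rich promoters. Among genes with a CpG ratio of at least 0.6, the ETS motif was found in 1.39% (0.845 to 2.28%) of 1078 genes without and 9.70% (9.14 to 10.3%) of 10446 genes with Spin1. The NRF1 motif was found in 1.67% (1.06 to 2.62%) and 6.19% (5.75 to 6.67%), and the cAMP response element in 1.58% (0.987 to 2.51%) and 3.88% (3.52 to 4.26%). The GC box GGGCGG, the site of Sp1, was found in 72.8% (70.1 to 75.4%) and 73.8% (72.9 to 74.6%). Over all genes, the GC box was found in 51.6% without Spin1, 68.1% with both marks and 44.0% of all promoters. TATAAA was found in 9.12% (8.13 to 10.2%), 6.20% (5.80 to 6.62%) and 12.7%. With its first base between -40 and -20 on the strand of the gene, TATAAA was found in 66 genes or 2.23% (1.76 to 2.83%), compared with 1.04% (0.883 to 1.23%) with both marks and 2.56% of all promoters. The E-box CAGCTG, a site of myogenic bHLH factors that reads the same on both strands, was found in 18.3% (17.0 to 19.8%), 14.6% (14.0 to 15.2%) and 15.8%. The MEF2 motif was found in 70 genes or 2.36% (1.88 to 2.98%), compared with 1.51% (1.32 to 1.73%) and 2.72%, and can share letters with TATAAA. At a CpG ratio of at least 0.6, the E-box was found in 12.6% (10.8 to 14.7%) of genes without and 13.0% (12.4 to 13.7%) of genes with Spin1, and the MEF2 motif in 1.21% (0.706 to 2.05%) and 1.20% (1.01 to 1.42%). At scores of 3100 or more, these shares were 14.9% (13.1 to 17.0%) and 14.4% (13.8 to 15.0%) for the E-box and 1.47% (0.943 to 2.28%) and 1.46% (1.27 to 1.68%) for the MEF2 motif. The CCAAT box was found in 34.8%, 37.7% and 37.7%, and the CArG box of serum response factor in 1.55%, 1.26% and 1.44%.

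Start sites of another gene on the opposite strand lay within 1 kb in 301 of the 2961 genes or 10.2% (9.13 to 11.3%) and in 25.2% (24.5 to 26.0%) of genes with both marks. Of the 2961 genes, 2378 (80.3%) were protein-coding, compared with 89.9% of genes with both marks, and the share of protein-coding genes with H3K4me3 that lacked Spin1 was 16.7%. It was 27.2% for 1356 lncRNA genes, 36.2% for 298 microRNA genes and 45.8% for 120 transcribed pseudogenes, and 8.14% for 86 snoRNA genes. Of the 108 microRNA genes, 82 lay inside another gene and 30 on an H3K4me3 peak that also served a gene with Spin1. The annotated start of a microRNA is the start of its hairpin and not the start of transcription. On the X chromosome, 151 of 534 H3K4me3 genes or 28.3% (24.6 to 32.2%) lacked Spin1, compared with 17.9% (17.3 to 18.5%) on the autosomes. At scores of 3100 or more these shares were 16.1% (13.0 to 19.8%) of 448 genes and 8.81% (8.35 to 9.30%) of 13855 genes.

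Genes of the contractile apparatus without Spin1 mostly had H3K4me3 of low score. Of 60 listed contractile genes, 44 had H3K4me3, of which 13 or 29.5% (18.2 to 44.2%) lacked Spin1, an interval that includes the 18.3% of all H3K4me3 genes. At scores of 3100 or more it was 2 of 27, or 7.41% (2.06 to 23.4%), beside 9.04%. Below 3100 it was 11 of 17 or 64.7% (41.3 to 82.7%), beside 87.8% of all H3K4me3 genes in that range. Where peak centres had to lie in the window, the share over all scores was 50% (30.7 to 69.3%), beside 21.4% of all H3K4me3 genes. That setting also drops genes whose H3K4me3 peak is centred outside the window, so its shares rest on fewer genes. The 2 contractile genes without Spin1 at 3100 or more were Myh3, the embryonic myosin heavy chain, and Mybpc1, the slow myosin binding protein C. Spin1 lay close to their windows, at 1237 bp and 1203 bp. The other myosin heavy chain genes were Myh1, the fast 2X form, with a score of 252 and Myh8 with 97.5, over a peak of 801 bp (chr11:67276955-67277755). For these, Spin1 was 118915 bp and 177678 bp away. Of the M-band genes, Myom1 had a score of 2404 and Myom2 of 1445. The peak of Myom2 (chr8:15058194-15062210) was 4017 bp wide and began downstream of the start site. Titin-binding Tcap had a score of 671, the Z-disc proteins Csrp3 and Myoz2 had 311 and 84.6, and Smpx, a small cytoskeletal protein of muscle encoded on the X chromosome, had 529. Fast myosin binding protein C, Mybpc2, had 173, and Xirp2 and Ankrd23, a titin-associated ankyrin repeat protein, had 63.2 and 62.6. The median CpG ratio of the 13 genes was 0.223, with 0.0470 in Myom2 and 0.481 in Mybpc1 at the ends. The 31 contractile genes with both marks had a median of 0.323.

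For excitation-contraction coupling, 8 of 31 H3K4me3 genes or 25.8% (13.7 to 43.2%) lacked Spin1, and 3 of 24 or 12.5% (4.34 to 31.0%) at scores of 3100 or more. These intervals include the shares over all H3K4me3 genes, 18.3% and 9.04%. With peak centres in the window, the share over all scores was 42.9% (24.5 to 63.5%) of fewer genes, beside 21.4% of all H3K4me3 genes. Scn4b, the β4 subunit of voltage-gated sodium channels, had a score of 3100, a peak of 1788 bp (chr9:45137627-45139414) and a CpG ratio of 0.758, and Spin1 was 82760 bp away. Sypl2 and the potassium channel gene Kcna7 also reached 3100, with CpG ratios of 0.817 and 0.588. Pvalb, the calcium buffer parvalbumin of fast fibres, had a score of 1416 (chr15:78203740-78205035) and Spin1 at 28799 bp. Mrln, the calcium pump inhibitor myoregulin, had 2732, Trdn, the calcium release complex protein triadin, 1128, Mylk2, the skeletal myosin light chain kinase, 1079, and Kcnj11, the pore of the ATP-sensitive potassium channel, 171. In Trdn, Spin1 was at 1052 bp, close to the window.

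Of 32 genes of muscle metabolism with H3K4me3, 4 or 12.5% (4.97 to 28.1%) lacked Spin1, an interval that includes the 18.3% of all H3K4me3 genes. At scores of 3100 or more it was 0 of 26, which allows a share of up to 12.9% (upper Wilson limit), beside 9.04%. With peak centres in the window, the share over all scores was 25% (11.2 to 46.9%) of fewer genes, beside 21.4% of all H3K4me3 genes. Ckm had a score of 968 over 2255 bp (chr7:19410135-19412389), with a CpG ratio of 0.151 and Spin1 at 27204 bp. Car3, a carbonic anhydrase of slow muscle, had 881. Cox7a1 and Cox6a2, the muscle isoforms of cytochrome oxidase subunits, had 456 and 215. All 4 had a CpG ratio of at most 0.332, whereas the 28 metabolic genes with both marks had a median of 0.552.

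Most genes that direct myogenesis carried Spin1. Of 40 myogenic regulators, all with H3K4me3, 3 or 7.50% (2.58 to 19.9%) lacked it, an interval that includes the 18.3% of all H3K4me3 genes. With peak centres in the window, which leaves fewer than 40 genes, the share was 25% (10.2 to 49.5%), beside 21.4% of all H3K4me3 genes. Under the main rule, at scores of 3100 or more, it was 0 of 37, which allows up to 9.41% (upper Wilson limit). The 3 genes were Myf6, the bHLH factor also known as MRF4, with a score of 2308 and Spin1 at 8129 bp, the homeobox gene Meox1 with 419 and Spin1 at 12271 bp, and Mef2b, a MEF2 factor, with 201 and Spin1 at 5696 bp. Of 21 genes of the neuromuscular junction, 1 lacked Spin1, namely Ache for acetylcholinesterase, with a score of 3100 and Spin1 at 4800 bp. The share was 4.76% (0.846 to 22.7%), an interval that includes the 18.3% of all H3K4me3 genes. It became 17.6% (6.19 to 41.0%) of fewer genes with peak centres in the window. It became 0% (upper limit 15.46%) with Spin1 kept out of TSS±5 kb.

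**Figure D4:**
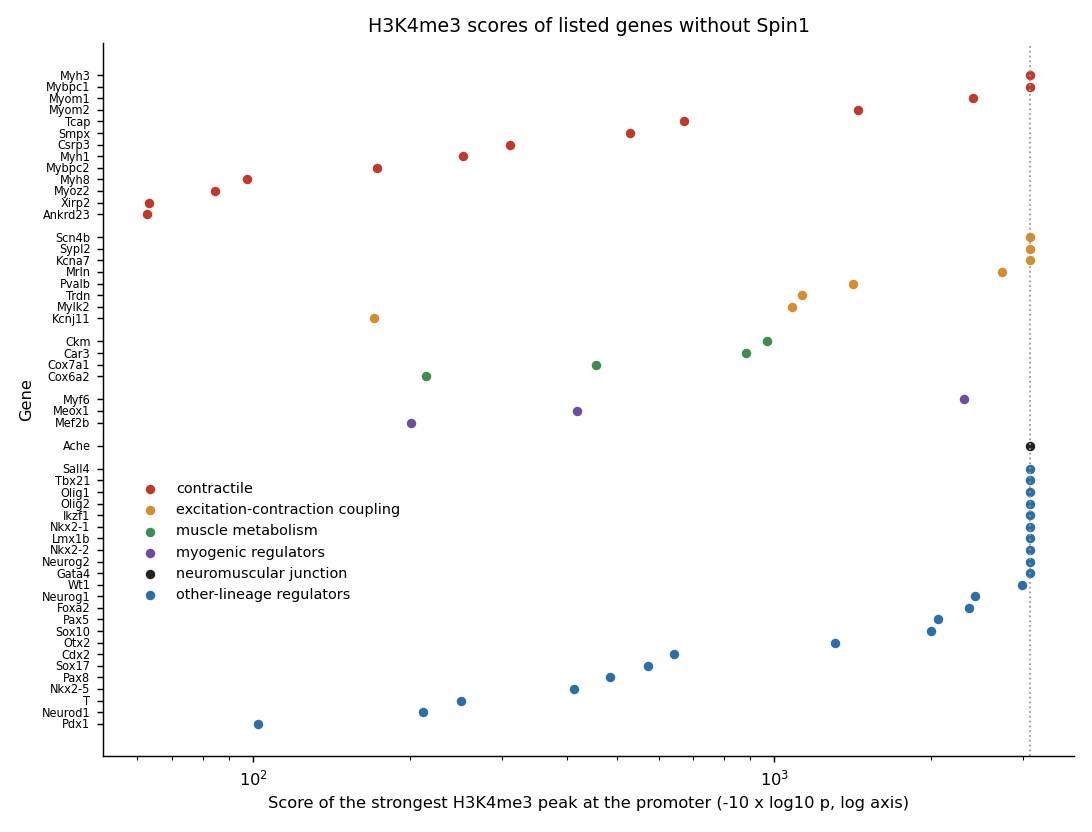
Score of the strongest H3K4me3 peak (10 times the negative log10 p-value, log axis) at the promoter of each listed gene without Spin1, coloured by list, with the value of 3100 dotted. In the contractile list, 2 of 13 genes reached 3100, and the other 11 lay between 62.6 and 2404. The value of 3100 was reached by 10 of 23 regulators of other lineages, and by 1293 of all 2961 genes without Spin1 or 43.7%.

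Transcription factors that direct lineages other than muscle often lacked Spin1. Of 62 such genes, 52 had H3K4me3, and 23 of these or 44.2% (31.6 to 57.7%) lacked Spin1. At scores of 3100 or more it was 10 of 38 or 26.3% (15.0 to 42.0%), beside 9.04%. Those at 3100 included the neural genes Neurog2, Olig1, Olig2, Nkx2-2 and Lmx1b, the thyroid and forebrain gene Nkx2-1, the cardiac and endodermal gene Gata4, the blood genes Ikzf1 and Tbx21, and Sall4 of the germ line and early embryo. Neurog2 had a peak of 4114 bp (chr3:127631063-127635176) and Spin1 at 78582 bp, and Ikzf1 a peak of 2752 bp (chr11:11684662-11687413) and Spin1 at 117262 bp. Lmx1b was close to the window, with Spin1 at 1080 bp. Below 3100 were Wt1 of the kidney and gonad (2985), Neurog1 (2432), Foxa2 of the endoderm (2360), Pax5 of B cells (2061), Sox10 of the neural crest (1995) and Otx2 of the forebrain (1306). At the lower end were Cdx2 of the intestine (643), Sox17 of endoderm and endothelium (572), Pax8 of thyroid and kidney (485), the cardiac gene Nkx2-5 (413), Neurod1 (212) and the pancreatic gene Pdx1 (102). The median CpG ratio of the 23 genes was 0.677, compared with 0.734 for the 29 with both marks and 0.223 for the 13 contractile genes without Spin1.

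Families of developmental genes were counted in the same way, beside 18.3% of all H3K4me3 genes and 9.04% of those at 3100 or more. The lists and families were put together with results of these data in view, so the shares describe them and call nothing particular to a family. Of 19 Lhx and Nkx homeobox genes with H3K4me3, 14 or 73.7% (51.2 to 88.2%) lacked Spin1, and 10 of 15 at 3100 or more. Among the latter were Nkx3-2, a gene of the axial skeleton, with Spin1 at 55229 bp and Lhx9 of the gonad with Spin1 at 8070 bp. Of 17 Wnt ligands with H3K4me3, 13 or 76.5% (52.7 to 90.4%) lacked Spin1, and 11 of 15 at 3100 or more. Wnt10a and Wnt3a had lower scores of 1222 and 980. The 4 Wnt genes with both marks were Wnt5a, Wnt5b, Wnt9a and Wnt11. Of 18 Fgf genes, 10 or 55.6% (33.7 to 75.4%) lacked Spin1, from Fgf8 and Fgf18 at 3100 to Fgf20 at 67.4, and of 12 Bmp and Gdf genes, 6, among them Bmp3, Bmp6 and Bmp7 at 3100. Of 37 forkhead genes, 10 or 27.0% (15.4 to 43.0%) lacked Spin1, an interval that includes 18.3%. At 3100 or more it was 8 of 35 or 22.9% (12.1 to 39.0%), among them Foxe1, Foxl2 and Foxb1. Of the 36 Hox genes with H3K4me3, 13 or 36.1% (22.5 to 52.4%) lacked Spin1, and these were 1 of 11 in the Hoxa, 7 of 9 in the Hoxb, 2 of 9 in the Hoxc and 3 of 7 in the Hoxd cluster. With Spin1 kept out of TSS±5 kb, the share of Hox genes was 25% (13.8 to 41.1%), beside 16.3% of all H3K4me3 genes.

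Among the families of channels, receptors and adhesion proteins described here, the share without Spin1 ran from 15% to 83.3%. Over all H3K4me3 genes it was 18.3%, and 9.04% at 3100 or more. Of 37 receptors for GABA and glutamate with H3K4me3, 29 or 78.4% (62.8 to 88.6%) lacked Spin1, and 16 of 24 or 66.7% (46.7 to 82.0%) at 3100 or more. Their median distance to Spin1 was 373158 bp, and Gabrb2, Grin2b and Grm7 were among those at 3100. Of 77 potassium channel genes, 46 or 59.7% (48.6 to 70.0%) lacked Spin1, and 25 of 56 or 44.6% (32.4 to 57.6%) at 3100 or more, among them Kcna1, Kcna2 and Kcnq3. Of 23 calcium channel genes, 7 or 30.4% (15.6 to 50.9%) lacked Spin1, an interval that includes the 18.3% of all H3K4me3 genes. Of 18 cadherin genes, 11 or 61.1% (38.6 to 79.7%) lacked Spin1. Cdh1, the E-cadherin of epithelia, reached 3100 with Spin1 at 16094 bp, whereas Cdh5 of endothelium had 246. Claudins, which seal epithelial and endothelial tight junctions, lacked Spin1 in 10 of 12 H3K4me3 genes or 83.3% (55.2 to 95.3%). Here Cldn6 and Cldn10 reached 3100, Cldn1 had 1947, Cldn4 had 93.5 and Cldn9 had 57.6. The peak of Cldn6 ended upstream of the start site, and Spin1 was 1509 bp away. At 3100 or more, 2 of 4 claudin genes lacked Spin1. With Spin1 kept out of TSS±5 kb, the share of claudin genes over all scores was 58.3% (32.0 to 80.7%). Of 20 genes for integrins, the receptors for extracellular matrix, 3 or 15% (5.24 to 36.0%) lacked Spin1, and 2 of 18 at 3100 or more.

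Ribosomal protein and proteasome genes, both housekeeping families, lay at the other end. None of 77 ribosomal protein genes (upper Wilson limit 4.75%) and none of 37 proteasome subunit genes (9.41%) with H3K4me3 lacked Spin1. All of these genes scored 3100 or more, where the share over all H3K4me3 genes was 9.04%. The proteasome limit includes that share. For subunits of NADH dehydrogenase, 2 of 48 or 4.17% (1.15 to 14.0%) lacked Spin1. At 3100 or more, 1 of 47 or 2.13% (0.377 to 11.1%) did, an interval that includes 9.04%. Zinc finger genes of the Zfp series lacked Spin1 in 18 of 342 or 5.26% (3.35 to 8.17%), with 5 of 323 at 3100 or more. Solute carriers did not share these low values and lacked Spin1 in 58 of 255 genes or 22.7% (18 to 28.3%), near the 18.3% of all H3K4me3 genes. At 3100 or more it was 17 of 212 or 8.02% (5.07 to 12.5%), near the 9.04% of all H3K4me3 genes in that class.

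**Figure D5:**
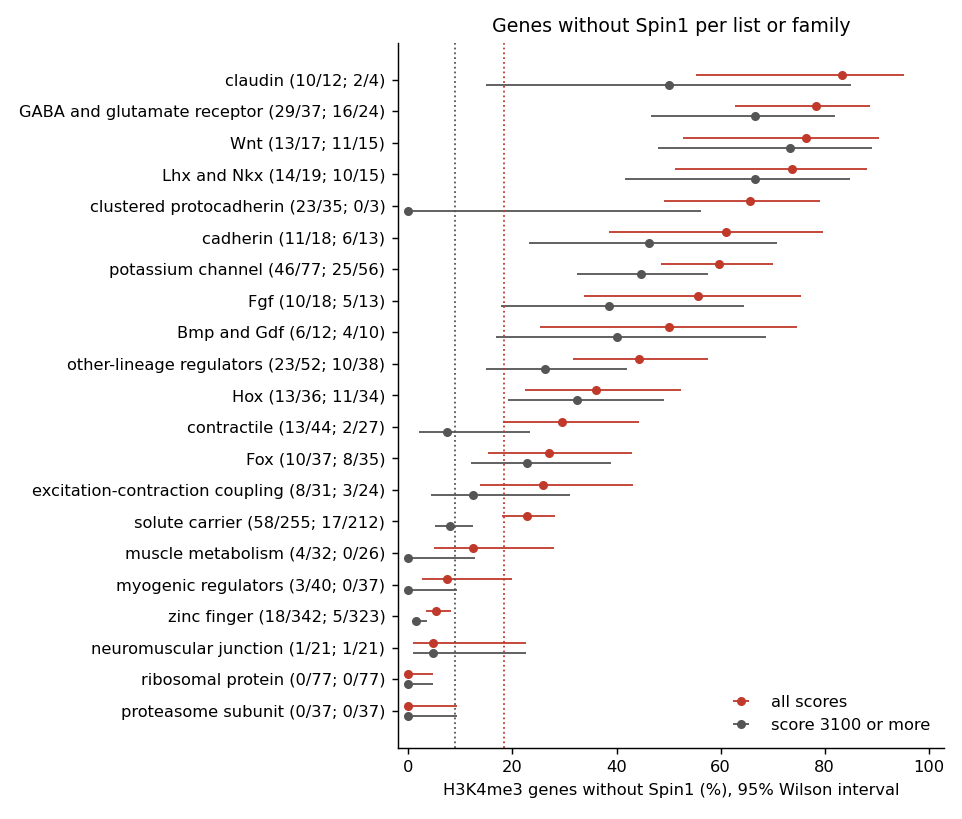
Share of H3K4me3 genes without Spin1 (%) per list or family, with 95% Wilson intervals, for all scores (red) and for scores of 3100 or more (grey). Counts are given beside each name in that order, and the dotted lines are the shares over all genes, 18.3% and 9.04%. Receptors for GABA and glutamate, Wnt, and Lhx and Nkx genes lay above both lines, and ribosomal protein genes at 0.

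A culture from limb muscle can hold other cells, and their markers were counted in the same way. Over all H3K4me3 genes, 18.3% lacked Spin1, with 87.8% below 3100 and 9.04% at 3100 or more. Of 9 endothelial markers, 5 had H3K4me3 and all 5 lacked Spin1, with Kdr and Erg at 3100, Cldn5 at 1360, Tek at 473 and Cdh5 at 246. Pecam1, Vwf, Tie1 and Emcn had neither mark. Of 10 fibroblast markers, all with H3K4me3, 3 lacked Spin1, namely Dcn (3100), Thy1 (2065) and Lum (192). The interval of 10.8 to 60.3% includes 18.3%. Of 9 macrophage markers, 2 had H3K4me3, and of these Cd68 lacked Spin1 with a score of 51.8, while Ptprc, Csf1r, Adgre1 and Itgam had neither mark. Of 6 Schwann cell markers, 5 had H3K4me3, of which Mbp (3100), Sox10 (1995) and S100b (1066) lacked Spin1. For neurons, 4 of 5 markers with H3K4me3 lacked Spin1, and 3 of these 4 scored under 3100. For adipocytes it was 1 of 3, for pericytes and smooth muscle 0 of 4 and for erythroid cells 0 of 2. The intervals of these 3 lists and of the macrophage list include 18.3%. A peak list from 1 bulk library does not tell whether a weak mark lay on all cells or on a few, and the part of other cells in these counts was not tested.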

How the data were processed

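The input to this work was 1 Spin1 and 1 H3K4me3 ChIP-seq library of primary myoblasts, each amplified with 12 PCR cycles. Per the methods, the reads were aligned by the authors to mm10 (bowtie 2), and peaks were called over input with MACS 1.4.2 at a false discovery rate of at most 1%. For each peak, the authors deposited a start, an end and the MACS score, with lowest values of 50.66 for Spin1 and 50.03 for H3K4me3. The score has no per-read unit and grows with depth, peak width and PCR duplicates. Of the 25 samples, 23 (the input and all RNA-seq samples) were not analysed here.

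Start sites of 45756 curated transcripts (NM and NR) on 21 chromosomes were taken from RefSeq on GRCm38.p6. The RefSeq version of the authors is not given in the sources used here. For a gene with several start sites, features were read at the one nearest to the centre of its strongest H3K4me3 peak. Shares have 95% Wilson intervals and medians have intervals from binomial order statistics, and both cover counting error only. No test was made, since each mark had 1 library.

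The genes studied and the gene lists were chosen with earlier results of these data known. Named genes were those without Spin1 in the lists, some muscle genes that the study names (Scn4b, Myh8, Pvalb and Ckm), and those at the ends of score, width, CpG ratio and distance to Spin1. No order was read among scores of 3100 or more. Families were found by gene symbol, and the members named in them were picked after their values were seen. Alternatives were promoter windows of TSS±0.5 kb and TSS±2 kb, 1 TSS per gene, protein-coding genes only, scores of at least 100, an overlap of 200 bp, peak centres and a Spin1-free window of TSS±5 kb. Restriction to scores of 3100 or more was added after the data were seen. The assignment of genes and both intervals were tested on simulated data. Python 3.11.15, NumPy 2.4.6, pandas 2.3.3, SciPy 1.17.1, statsmodels 0.14.6 and matplotlib 3.10.9 were used.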

Additional observations from a re-analysis of the deposited data

How the results depend on the processing

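The number of genes without Spin1 stayed between 2378 and 3042 under the alternatives named above other than that of scores of 3100 or more, and 27 of 43 recomputed main values kept within their interval or within 1.5 times the count. The others moved as follows. With TSS±2 kb, the median CpG ratio was 0.503. With protein-coding genes only, 16.7% of H3K4me3 genes lacked Spin1 and the median CpG ratio was 0.536. With scores of at least 100, these values were 17.3% and 0.537, and the median H3K4me3 score was 2750. With peak centres in the window, they were 21.4% and 0.537, with 82.4% protein-coding genes. Without Spin1 in TSS±5 kb, they were 16.3% and 0.532, with 82.2% protein-coding genes. With scores of 3100 or more, added after the data were seen, 1293 genes or 9.04% remained, of which 82.2% were protein-coding, with a median CpG ratio of 0.635. Under each of these settings, the CpG ratio stayed below 0.752, the value of genes with both marks under the main rule. Genes with both marks had 0.756 among protein-coding genes and 0.755 at scores of 3100 or more. They were not recomputed under the other settings. With peak centres, 50% of contractile genes, 42.9% of excitation-contraction coupling genes, 25% of myogenic regulators, 25% of metabolic genes, 17.6% of neuromuscular junction genes and 92.3% of Wnt genes lacked Spin1. These shares rest on fewer genes, since the H3K4me3 peak also had to be centred in the window.

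No paired analysis was possible because each mark had a single library. The spread between cultures is unknown, and neither replicate error nor a missed Spin1 peak can be estimated.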

Other observations

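The 33 ribosomal RNA genes among the H3K4me3 genes all lacked Spin1. Of these, 32 were copies of the 5S gene in the tandem array on chromosome 8, with starts from chr8:123538904 to chr8:123622046 on GRCm38, a span of 83.1 kb. The array held 17 H3K4me3 peaks at these starts, 13 of them with a score of 3100 or more and the lowest at 581, from 919 to 13363 bp wide and 82.5 kb in sum. No Spin1 peak was listed in the array, and the nearest lay between 18753 and 66209 bp from the starts. Between 59.4% and 92.3% of the bases within 500 bp of a start are marked as repeats in the reference, and reads from near-identical copies cannot be assigned to 1 of them. The remaining gene was Rn4.5s on chromosome 6, with a score of 3100 and Spin1 at 20345 bp.

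Among small RNA genes, Mir23a, Mir27a and Mir24-2, which form 1 cluster on chromosome 8, shared an H3K4me3 peak of 11958 bp. It ended upstream of the hairpin starts. Spin1 was 3014, 3168 and 3311 bp upstream of the hairpin starts, in a peak that overlapped the same H3K4me3 peak. The neuronal microRNA genes Mir124a-3, Mir137, Mir129-2 and Mir9-2 had scores of 3100, with Spin1 at 25326, 127914, 31721 and 7298 bp. Of 35 clustered protocadherin genes with H3K4me3, which give neurons their surface identity, 23 or 65.7% (49.2 to 79.2%) lacked Spin1. Their median score was 308, with Pcdhga7 at 1323 as the highest, and 0 of the 3 family members with scores of 3100 or more lacked Spin1. Below 3100, 23 of 32 or 71.9% (54.6 to 84.4%) lacked it, compared with 1668 of 1900 or 87.8% (86.2 to 89.2%) of all H3K4me3 genes in that range.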
